A study of Homo sapiens with 8 samples.

Results

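The proteasome genes examined here are the subunits of the core particle and of the regulatory particle, the proteasome activators and one inhibitor, and the chaperones that assemble both particles. The list held 46 genes. Of these, 43 had at least 1 probe-set row annotated with that gene symbol and no other, among 33616 genes measured in this way, and PSMC5, PSMD7 and PSMD13 are not analysed here. Each gene was read from its row with the highest mean signal over the 8 arrays. The RNA came from HBL-1, a line derived from an activated B-cell-like diffuse large B-cell lymphoma, and from BJAB, a B lymphoma line without Epstein-Barr virus. Each line was exposed for 6 h to recombinant APRIL at 1 µg/ml, a tumour necrosis factor family ligand that binds the receptors TACI and BCMA, or to EDA at 1 µg/ml, another ligand of that family, which served as the control. Each of the 4 groups, HBL-1 with EDA, HBL-1 with APRIL, BJAB with EDA and BJAB with APRIL, had 2 arrays. Each kind of lymphoma was represented by a single line, and no arrays of untreated cells were among those analysed. Nothing in the labels tells if separate cultures stood behind the paired arrays of each group, so what the p-values measure is array-to-array spread, possibly technical only.

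The proteasome degrades proteins marked with ubiquitin. A barrel of alpha and beta rings encloses the catalytic sites, and a regulatory particle made of a base with ATPase subunits and a lid binds, unfolds and feeds in the substrate. In cells exposed to interferon-gamma, and constitutively in many lymphoid cells, the catalytic subunits PSMB5, PSMB6 and PSMB7 are replaced during assembly by PSMB8, PSMB9 and PSMB10, which gives the immunoproteasome, a form known for shaping the peptides presented on MHC class I.

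Promoter sequence is shown for the 3 immunoproteasome genes and the activator PSME1, which are known interferon targets, for PSMB5, the counterpart of PSMB8, and for PSMD9, which was dim in HBL-1 and bright in BJAB. The sequences are RefSeq's on build GRCh38.p14, cover the 250 bases upstream of the annotated start and read 5′ to 3′ on the strand of the gene. Where a gene had more than 1 such window, the first listed is printed. Capitals mark a match to 1 of 4 motifs searched on both strands.
PSMB8, chr6:32844680-32844929, minus strand: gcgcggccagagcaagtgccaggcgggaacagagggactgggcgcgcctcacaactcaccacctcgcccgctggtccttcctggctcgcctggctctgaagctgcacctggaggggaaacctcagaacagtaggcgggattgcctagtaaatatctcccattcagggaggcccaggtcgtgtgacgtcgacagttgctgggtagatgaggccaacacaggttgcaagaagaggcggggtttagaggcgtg
PSMB9, chr6:32853942-32854191, plus strand: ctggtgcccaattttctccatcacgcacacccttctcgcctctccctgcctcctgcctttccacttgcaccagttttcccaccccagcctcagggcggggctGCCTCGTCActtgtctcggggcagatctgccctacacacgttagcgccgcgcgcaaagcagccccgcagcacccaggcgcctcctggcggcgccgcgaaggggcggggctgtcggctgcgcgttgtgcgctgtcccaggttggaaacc
PSMB10, chr16:67936851-67937100, minus strand: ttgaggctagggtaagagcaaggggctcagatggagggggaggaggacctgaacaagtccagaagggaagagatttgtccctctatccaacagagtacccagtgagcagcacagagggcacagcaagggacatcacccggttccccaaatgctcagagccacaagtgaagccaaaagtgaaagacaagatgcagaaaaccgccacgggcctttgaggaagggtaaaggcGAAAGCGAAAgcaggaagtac
PSME1, chr14:24135944-24136193, plus strand: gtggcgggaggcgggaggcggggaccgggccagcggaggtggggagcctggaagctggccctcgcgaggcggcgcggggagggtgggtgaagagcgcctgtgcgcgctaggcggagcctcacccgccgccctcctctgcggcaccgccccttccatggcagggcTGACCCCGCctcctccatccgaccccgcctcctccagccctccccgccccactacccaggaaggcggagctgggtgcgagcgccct
PSMB5, chr14:23035221-23035470, minus strand: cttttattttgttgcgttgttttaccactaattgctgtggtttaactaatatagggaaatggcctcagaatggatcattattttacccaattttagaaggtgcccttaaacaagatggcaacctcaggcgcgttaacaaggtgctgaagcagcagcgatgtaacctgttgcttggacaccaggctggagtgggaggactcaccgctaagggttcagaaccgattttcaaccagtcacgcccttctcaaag
PSMD9, chr12:121888540-121888789, plus strand: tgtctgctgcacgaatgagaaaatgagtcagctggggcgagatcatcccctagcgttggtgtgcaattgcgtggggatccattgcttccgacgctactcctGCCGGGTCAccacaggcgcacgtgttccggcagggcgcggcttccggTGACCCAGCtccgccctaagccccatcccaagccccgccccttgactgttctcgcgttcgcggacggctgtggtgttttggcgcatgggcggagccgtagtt

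The motifs were the core of the interferon-stimulated response element, GAAA followed by any 2 bases and GAAA, the gamma-interferon activation site, TTCNNNGAA, a kappa B site, GGG followed by any 2 bases and TTTCC, and the core of the antioxidant response element, TGACNNNGC, which is related to the sites bound by NFE2L1, a regulator of proteasome genes. Of the 43 measured members, 37 had a promoter in the table, in 45 windows. The interferon-stimulated element was matched in 8.89% of the members' windows and in 3.02% of all 34943 promoter windows. It was the motif in capitals in PSMB10, as GAAAGCGAAA, and it also occurred in PSMA4, PSMB4 and PSMG4. The gamma-interferon site was matched in 13.3% of the members' windows against 6.56% of all. PSMB8 and PSMB5 each had a second window, not printed, and both of those held this site, as TTCTCGGAA upstream of PSMB8 and as TTCAGTGAA and TTCTCAGAA upstream of PSMB5. The antioxidant core was matched in 24.4% of the members' windows against 10.9% of all, in the printed windows as GCCTCGTCA in PSMB9, TGACCCCGC in PSME1, and GCCGGGTCA and TGACCCAGC in PSMD9. The kappa B site was matched in PSMD6 alone among the members, 2.22% of windows against 1.73%. No matches overlapped in the printed windows. These matches describe the letters of the windows and were not tested.

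The deposited values are log2 signals, and differences are on the same scale. Because probe sets differ in response, levels are not compared between genes. The arrays had medians between 5.58 and 5.74. The second HBL-1 APRIL array stood apart: it had the highest median, 5.74 against at most 5.66 in the other arrays, its 23 background probe sets had a median of 3.77 against 3.57 to 3.65, and it gave the highest value of its line for 40 of the 43 members and for 74.5% of the 3053 genes with a mean signal of at least 12. Each B-cell marker measured (6 of 6) was above 5 in every array, with summed log2 signals of 82.9 to 84.7 in HBL-1 and 86.1 to 86.6 in BJAB. The sums over 8 T and NK cell markers were 40.9 to 43.05 in HBL-1 and 43.1 to 45.4 in BJAB, those over 8 myeloid markers 39.2 to 41.5 and 40.4 to 41.2, and those over 8 epithelial and fibroblast markers 51.3 to 54.3 and 52.6 to 53.7. Between the lines, 10.3% of all genes were called higher and 13.9% lower in HBL-1, at an adjusted p under 0.05 by limma. By that rule, 2 of 6 B-cell markers were higher and 2 lower. Of the 8 T and NK cell markers, 1 was higher and 2 were lower. None of the 8 myeloid markers was called (0 at an unadjusted p under 0.05 as well). Of the 8 epithelial and fibroblast markers, 4 were higher and 1 was lower, the largest difference being DCN at -6.58. The part of these markers in the results was not tested. Each array measures RNA from a whole culture, so fewer cells expressing a gene and less RNA per cell cannot be told apart.

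The first comparison asked how the lines differed in proteasome gene expression, with the ligands pooled, 4 arrays against 4. HBL-1 had higher signals of all 3 immunoproteasome subunits and of PSME1, and lower signals of most core subunits that differed, among them PSMB5, PSMB7 and PSMB2. PSMD9, a chaperone of the base, was below 5 in all HBL-1 arrays and bright in BJAB. By limma, with Benjamini-Hochberg adjustment over all 33616 genes and an adjusted p under 0.05 as the call, 22 of 43 members differed, 9 higher and 13 lower in HBL-1. Across all genes, 10.3% were called higher and 13.9% lower, 24.2% in either direction. Genes as bright as most members were called more often: of the 3053 genes with a mean of at least 12, which include 36 members, 19.6% were higher and 28.2% lower. Of those 36 members, 9 were higher and 11 lower, so the share of members called was near that of equally bright genes. Complete separation of the HBL-1 from the BJAB arrays was seen for 10 members that were higher and 21 that were lower, against 11.5% and 14.4% of all genes. Among the 36 bright members these counts were 10 and 18, and among the 3053 bright genes 756 and 1069. The median difference over the members was -0.29, against 0.01 over all genes and -0.11 over the bright genes.

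**Figure D1:**
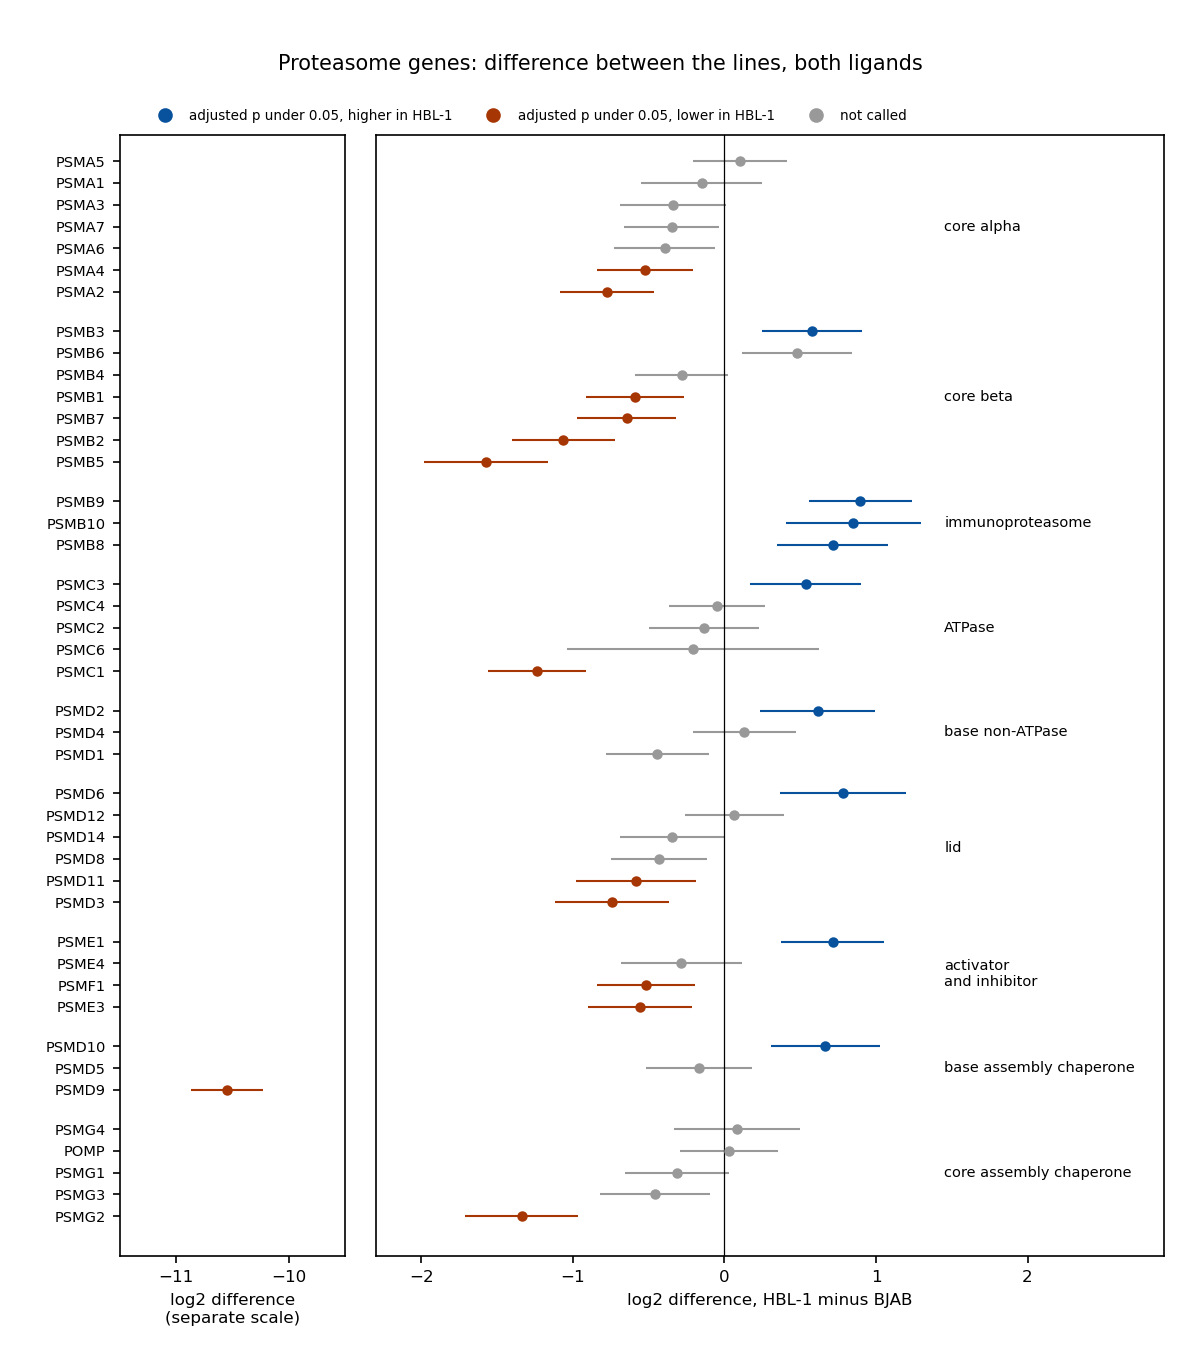
Difference in log2 signal between HBL-1 and BJAB (4 arrays each, both ligands) for 43 proteasome genes, sorted within each sub-complex; points are limma estimates, bars 95% confidence intervals, and the left panel has a separate scale. The immunoproteasome genes all lie to the right of 0, PSMB5 and PSMB2 lie furthest left among the core beta genes, and PSMD9, dim in HBL-1, has a fitted value of -10.55.

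The values that follow are log2 signals in the order EDA replicates 1 and 2, then APRIL replicates 1 and 2. Counts by sub-complex rest on few genes and were not tested. The shares to set beside them are 19.6% higher and 28.2% lower among the bright genes, and 10.3% and 13.9% among all genes. In the alpha ring, which gates entry to the core, 2 of 7 genes were lower in HBL-1 and 0 were higher, with a median of -0.35. PSMA2 read 15.77, 15.80, 15.87 and 16.02 in HBL-1 and 16.59, 16.55, 16.67 and 16.76 in BJAB, a difference of -0.78 (SE 0.14, adjusted p = 0.00192). Every HBL-1 array was below every BJAB array. PSMA4 differed by -0.52 (adjusted p = 0.021), a call lost when any 1 of 5 arrays was left out. The others were not called: PSMA6, PSMA7 and PSMA3 had differences of -0.39, -0.35 and -0.34 without overlap of the lines, and PSMA1 and PSMA5 overlapped.

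HBL-1 had lower signals of 4 of the 7 constitutive beta-ring genes and a higher signal of 1, with a median of -0.59. PSMB5 carries the chymotrypsin-like site and is the target of bortezomib. It read 12.57, 12.32, 12.46 and 13.17 in HBL-1 and 14.08, 14.22, 14.17 and 14.34 in BJAB, a difference of -1.57 (SE 0.18, adjusted p = 9.73e-05). PSMB2, a non-catalytic beta subunit, read 14.96, 14.82, 14.74 and 15.08 against 15.83, 16.03, 16.05 and 15.93, -1.06 (SE 0.15, adjusted p = 0.000418). For both genes the highest HBL-1 array lay below the lowest BJAB array. When the gene's rows were averaged, which brings in a dim row, the difference of PSMB2 was -0.49. PSMB7, which carries the trypsin-like site, read 14.77, 14.71, 14.68 and 14.95 against 15.31, 15.43, 15.40 and 15.56, -0.65 (SE 0.15, adjusted p = 0.00803). The non-catalytic PSMB1 read 15.97, 16.04, 16.05 and 16.33 against 16.58, 16.60, 16.74 and 16.82, -0.59 (SE 0.14, adjusted p = 0.0123). The non-catalytic PSMB3 went the other way, with 16.15, 16.01, 15.95 and 16.26 against 15.47, 15.45, 15.66 and 15.48, 0.58 (SE 0.15, adjusted p = 0.0162). The lines were again fully separated for these 3 genes, though the call for PSMB3 was lost when any 1 of 4 arrays was left out. PSMB6, which carries the caspase-like site, read 14.62, 14.29, 14.44 and 14.83 against 14.04, 13.87, 14.09 and 14.27 and was not called, at 0.48 (SE 0.16, adjusted p = 0.0592), although no arrays overlapped. PSMB4 was not called either, at -0.28.

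All 3 immunoproteasome subunits were higher in HBL-1, with a median of 0.85. PSMB9 read 13.27, 13.15, 13.33 and 13.64 in HBL-1 and 12.30, 12.41, 12.41 and 12.67 in BJAB, a difference of 0.90 (SE 0.15, adjusted p = 0.00136). PSMB10 read 12.69, 12.70, 12.78 and 13.54 against 11.84, 12.27, 12.25 and 11.96, 0.85 (SE 0.20, adjusted p = 0.00996). PSMB8 read 13.22, 12.99, 13.31 and 13.75 against 12.40, 12.67, 12.71 and 12.61, 0.71 (SE 0.16, adjusted p = 0.00861). Every HBL-1 array exceeded every BJAB array for each gene, and the second HBL-1 APRIL array was the highest of all 8 each time. These 3 calls were kept in all 19 alternative settings, including the one without that array.

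Set against the constitutive subunit that each replaces, the pairs differed in extent. The log2 signal of PSMB8 minus that of PSMB5 was 0.68 ± 0.11 (SD, n = 4) in HBL-1 and -1.60 ± 0.12 (SD, n = 4) in BJAB, so that the ratio was 4.88-fold higher in HBL-1. For PSMB10 minus PSMB7 the values were -1.85 ± 0.30 and -3.35 ± 0.23 (SD, n = 4 each), a 2.82-fold higher ratio. For PSMB9 minus PSMB6 they were -1.196 ± 0.11 and -1.62 ± 0.12 (SD, n = 4 each), a 1.34-fold higher ratio, with higher mean signals of both genes in HBL-1. The lines did not overlap for any of these ratios. Their absolute size carries the response of the probe sets and only the difference between lines can be read. The ratios were made from genes already tested and have no test of their own.

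**Figure D2:**
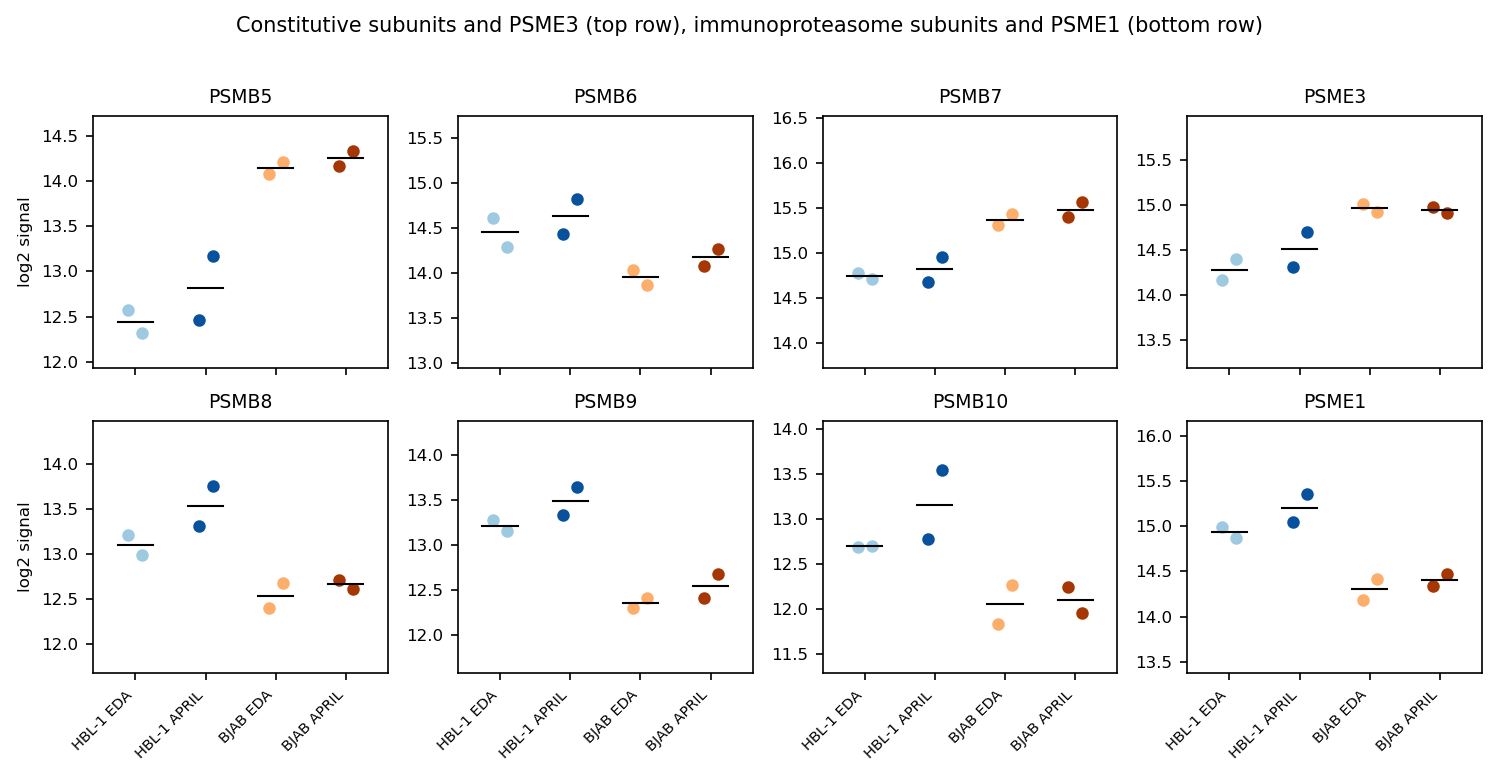
Log2 signal in each array (points) and group mean (lines) for PSMB5, PSMB6, PSMB7 and PSME3 in the top row and PSMB8, PSMB9, PSMB10 and PSME1 in the bottom row; every panel spans the same height in log2 units, with its own centre. HBL-1 lies above BJAB in all 4 bottom panels and below it for PSMB5, PSMB7 and PSME3, while PSMB6 is higher in HBL-1 at an adjusted p of 0.0592.

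Among the activators, PSME1, a subunit of the interferon-inducible activator ring, was higher in HBL-1, with 14.99, 14.87, 15.05 and 15.36 against 14.18, 14.42, 14.34 and 14.48, 0.71 (SE 0.15, adjusted p = 0.00555). PSME3, which forms the related nuclear activator, differed in the other direction by -0.56 (adjusted p = 0.0228), as did the inhibitor PSMF1, by -0.52 (adjusted p = 0.0252). The lines were separated for all 3 genes. Each of the last 2 calls was lost when any 1 of 6 arrays was left out, and that of PSME3 also when its rows were averaged, which brings in a second row with a mean of 5.12 and gave -0.31. PSME4, the large single-chain activator, overlapped between the lines. PSME1 minus PSME3 was 0.67 ± 0.15 in HBL-1 and -0.60 ± 0.18 in BJAB (SD, n = 4 each), a 2.42-fold higher ratio in HBL-1. That ratio follows from calls in opposite directions already given and has no test of its own.

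In the regulatory particle the calls went both ways. Among 5 ATPases, which unfold the substrate, PSMC1 was lower, with 13.32, 13.45, 13.39 and 13.65 in HBL-1 and 14.54, 14.62, 14.80 and 14.79 in BJAB, -1.24 (SE 0.14, adjusted p = 9.82e-05). The identifier of that row carries chromosome 3 while the gene lies on chromosome 14, so the value is uncertain, and the row that carries chromosome 14 gave -0.72. PSMC3 was higher, with 13.59, 13.40, 13.33 and 13.87 against 12.93, 13.04, 13.00 and 13.07, 0.54 (SE 0.16, adjusted p = 0.0372), and lost its call when any 1 of 7 arrays was left out. PSMC2 and PSMC6 were not called and overlapped between the lines. PSMC4 was read from a row with no chromosome in its identifier and was not called (-0.05), and the row carrying its own chromosome gave -0.13.

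Of the other base subunits, PSMD2, a scaffold that docks ubiquitin receptors, was higher in HBL-1, with 13.94, 14.14, 13.73 and 14.29 against 13.51, 13.66, 13.36 and 13.10, 0.62 (SE 0.17, adjusted p = 0.024). Its call was lost without any 1 of 5 arrays. PSMD1, the companion scaffold, and the ubiquitin receptor PSMD4 were not called, at -0.44 and 0.13.

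Of 6 lid subunits, 1 was higher and 2 were lower. PSMD6 read 12.82, 12.62, 12.78 and 13.48 in HBL-1 and 12.07, 11.97, 12.10 and 12.44 in BJAB, 0.78 (SE 0.19, adjusted p = 0.0108). PSMD3 read 12.51, 12.27, 12.09 and 12.59 against 13.05, 13.25, 13.18 and 12.96, -0.74 (SE 0.17, adjusted p = 0.00816). PSMD11 read 12.33, 12.59, 12.46 and 13.13 against 13.15, 13.23, 13.26 and 13.20, -0.58 (SE 0.18, adjusted p = 0.0377). The arrays of the lines were separate for PSMD6 and PSMD3, and for PSMD11 the second HBL-1 APRIL array came within a narrow margin of the lowest BJAB array. The call for PSMD11 was lost without any 1 of 7 arrays and under cyclic loess. PSMD8 (-0.43), PSMD14 (-0.34), the deubiquitinase of the lid, and PSMD12 (0.07) were not called.

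The chaperones of the base escort ATPases before the base is complete. PSMD9 read 3.81, 4.04, 4.88 and 4.82 in HBL-1 and 14.83, 14.81, 15.10 and 15.01 in BJAB, means of 4.39 ± 0.54 and 14.94 ± 0.14 (SD, n = 4 each). All 4 HBL-1 arrays lay below 5, a level under which probe sets were treated as dim. Measured against that level, PSMD9 was at least 979-fold lower in HBL-1 (adjusted p = 5.08e-11, limma). In the same order of arrays, 18.7%, 24.9%, 50.3% and 48.1% of all rows read lower than PSMD9 in HBL-1. In BJAB 98.1%, 98.1%, 98.3% and 98.3% did. The gene was read from its only row. PSMD10, also known as gankyrin, was higher in HBL-1, with 13.94, 13.77, 13.94 and 14.30 against 13.40, 13.23, 13.50 and 13.15, 0.67 (SE 0.16, adjusted p = 0.0118), a call lost without the second BJAB APRIL array. PSMD5 overlapped between the lines.

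The genes whose profiles over the 8 arrays were most like that of PSMD9 were JCHAIN, which links polymeric immunoglobulins, DCN, which encodes decorin, and NLGN4X, a neuroligin, with Pearson correlations that all rounded to 0.999 (n = 8). In all, 345 genes had a correlation above 0.99. The 8 points fall into the 2 lines, so that any gene with a large difference between lines resembles PSMD9 in this measure.

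Of the 4 measured genes nearest to PSMD9 on each side of chromosome 12, 7 of 8 were lower in HBL-1 by limma. BCL7A, a subunit of SWI/SNF chromatin remodelling complexes, differed by -5.19 (adjusted p = 4.96e-08), from a mean of 11.13 in BJAB to 5.93. SETD1B, a histone methyltransferase, differed by -2.60 (adjusted p = 2.59e-06) and RHOF, a small GTPase, by -2.35 (adjusted p = 0.000174). The fitted differences were smaller for CFAP251 (-1.57), LINC02985 (-1.23), MLXIP (-0.81) and LINC01089 (-0.71), the last of which overlapped between the lines. For CFAP251 and LINC02985 every HBL-1 array was below 5, so the sizes of their differences cannot be read. The second BJAB APRIL array was below 5 for LINC02985 as well, at 4.58. HPD, the nearest measured gene before PSMD9, was below 5 in every array and was not called, at 0.13. Across all genes 13.9% were called lower. Neighbouring genes are not independent of each other.

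**Figure D3:**
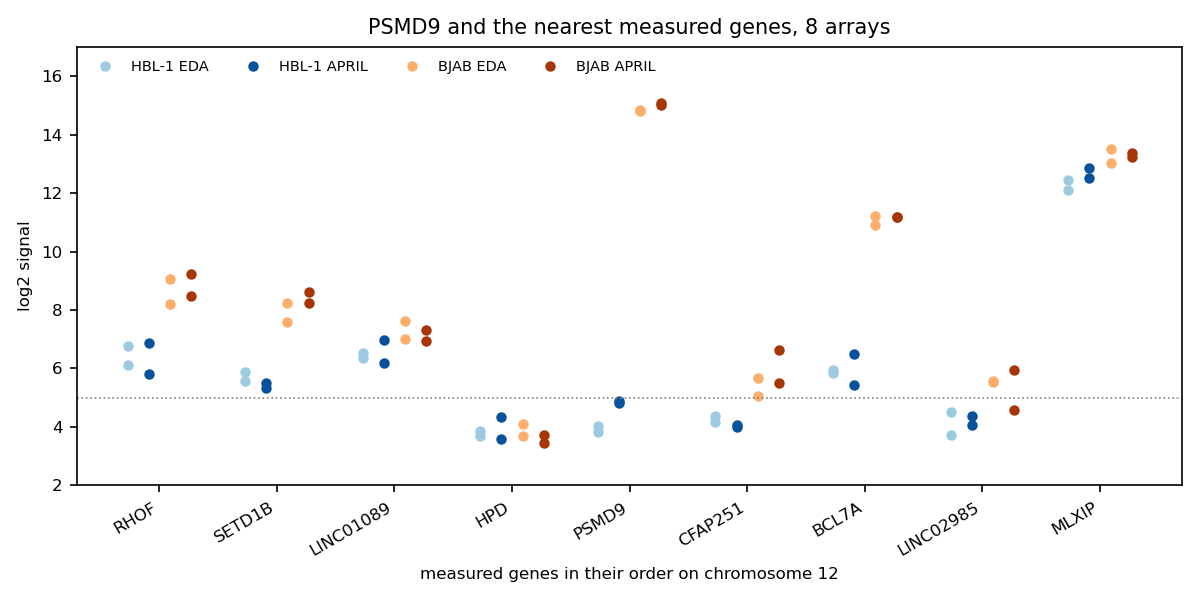
Log2 signal of PSMD9 and of the 4 nearest measured genes on each side, in chromosome order, with 1 point for each of 8 arrays coloured by group; the dotted line marks 5, below which probe sets were treated as dim. PSMD9 is below the line in all HBL-1 arrays and above 14 in all BJAB arrays, BCL7A has the next widest separation, and HPD is dim in both lines.

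Among the chaperones of the core, PSMG2, which pairs with PSMG1 to build the alpha ring, was lower in HBL-1, with 10.74, 10.76, 10.69 and 11.25 against 12.31, 12.22, 12.01 and 12.25, -1.34 (SE 0.17, adjusted p = 0.000164). No arrays overlapped. POMP, the maturation factor that stays with the assembling core until its beta subunits are processed, read 16.67, 16.64, 16.63 and 16.82 against 16.76, 16.50, 16.73 and 16.65, 0.03 (SE 0.15, adjusted p = 0.927), with overlapping lines and a sign that depended on the arrays included. PSMG1 (-0.31), PSMG3 (-0.46) and PSMG4 (0.08) were not called.

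The line difference was also taken under each ligand, 2 arrays against 2. Under EDA 7 members were called, 1 higher and 6 lower, where 6.22% of all genes were higher and 10.3% lower. Under APRIL 11 were called, 5 higher and 6 lower, where 7.92% were higher and 8.72% lower. Of the 36 bright members, 1 was higher and 4 were lower under EDA, and 5 and 4 under APRIL. Of the 3053 bright genes, 384 were higher and 633 lower under EDA, and 454 and 523 under APRIL. The 7 members called under EDA were all among the 11 called under APRIL, with the same sign, and 40 of 43 members had the same sign under both ligands. These counts depended on single arrays. Under EDA the count was 4, all lower, without the second HBL-1 EDA array or without the second BJAB EDA array, so the 1 higher call, PSMB9, was lost. Under APRIL it was 7, all lower, without the second HBL-1 APRIL array, and 5, all lower, without the first BJAB APRIL array. All 5 higher calls, PSMB8, PSMB9, PSMB10, PSME1 and PSMD10, were lost in both cases. Without the second BJAB APRIL array 1 was higher and 4 were lower. No difference between the 2 counts was tested other than through the test of the responses below.

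Genes around the proteasome were read from 4 further lists. The share to set beside the line calls of all 4 lists is that of all genes, 10.3% higher and 13.9% lower, 24.2% in either direction. The lists were not tested as sets. Of 17 measured genes for other subunits and bound factors, 4 were higher and 3 lower in HBL-1, with a median of -0.09. ZFAND2A, a stress-induced zinc-finger protein that binds the proteasome, differed by 2.05 (SE 0.16, adjusted p = 5.15e-06), UCHL5, a proteasome-bound deubiquitinase, by 0.87 (SE 0.14, adjusted p = 0.00111), SEM1, a small lid subunit, by 1.65, and TXNL1, a thioredoxin-like protein bound to the regulatory particle, by 0.65. Lower were PITHD1 at -1.95 (SE 0.15, adjusted p = 4.72e-06), USP14, another proteasome-bound deubiquitinase, at -1.47 (SE 0.15, adjusted p = 3.55e-05), and the ubiquitin ligase UBE3A at -0.62. The 2 deubiquitinases therefore differed in opposite directions.

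Of 9 genes that control proteasome gene expression, 2 were higher in HBL-1 and none lower: NFE2L1, the transcription factor of the proteasome recovery response, by 0.65 (SE 0.14, adjusted p = 0.00694), and NGLY1, the deglycosylase that processes it, by 0.47 (SE 0.14, adjusted p = 0.032). NFE2L2 and VCP were not called. Of 10 genes of ubiquitin supply and shuttling, UFD1, a cofactor of VCP, was higher (1.57 (SE 0.16, adjusted p = 3.57e-05)) and the shuttle UBQLN1 lower (-0.47 (SE 0.15, adjusted p = 0.0422)).

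Of 10 genes tied to interferon control of the immunoproteasome and its peptides, 2 were higher and 2 lower. NLRC5, the transactivator of MHC class I genes, had means of 8.72 in HBL-1 and 7.18 in BJAB (1.55 (SE 0.14, adjusted p = 1.78e-05)). TAP1, a peptide transporter gene beside PSMB9, had 11.93 and 10.96 (0.97 (SE 0.16, adjusted p = 0.000913)). TAP2, which lies beside PSMB8, was not called, with 9.36 and 9.78 (-0.41 (SE 0.16, adjusted p = 0.0973)). The receptor subunit IFNGR1 was lower in HBL-1, 7.23 against 9.69 (-2.47 (SE 0.14, adjusted p = 4.73e-07)), as was IRF8, a transcription factor of B cells (-0.93 (SE 0.14, adjusted p = 0.000694)). IRF1 and IFNG were not called, and IFNG had means under 5 in both lines.

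The second comparison asked whether APRIL changed proteasome gene expression in each line. By limma 0 of 43 members were called in either line, in their average or in the difference between the lines' responses, and the counts at an unadjusted p under 0.05 were 3 in HBL-1, 0 in BJAB, 3 for the average and 3 for the difference. Few genes of any kind were called: 0.00297% of all genes, a single gene, in HBL-1 and 0 in the other 3 comparisons, where 8.83%, 4.06%, 6.91% and 5.63% had an unadjusted p under 0.05. The median standard error over all genes was 0.25 for a response within a line. In the 20 alternative fits run for each line and the 19 run for the other comparisons, 0 members were called as well.

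In HBL-1, 37 of 43 members had a positive difference between APRIL and EDA, against 63.7% of all genes and 82.4% of the bright genes, with a median of 0.17 against 0.10 and 0.14. The 2 APRIL arrays exceeded both EDA arrays for 18 members and lay below both for 1, where 25.4% and 11.1% of all genes did so. Among the 36 bright members these counts were 13 and 0, and among the 3053 bright genes 1067 and 121, so the share of bright members was near that of equally bright genes. The 2 APRIL arrays differed in this shift. The first APRIL array had a median over the members of 0.00 relative to the EDA mean, with 22 of 43 above it, and the second had 0.30, with 42 of 43 above it. In that second array the bright genes had a median of 0.25 and all genes 0.18. The members' median was 0.00 without the second APRIL array and 0.30 without the first. In BJAB the median was 0.09, with 34 of 43 positive, against 50.3% of all genes and 61.6% of the bright genes, and both APRIL arrays had a median of 0.07.

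**Figure D4:**
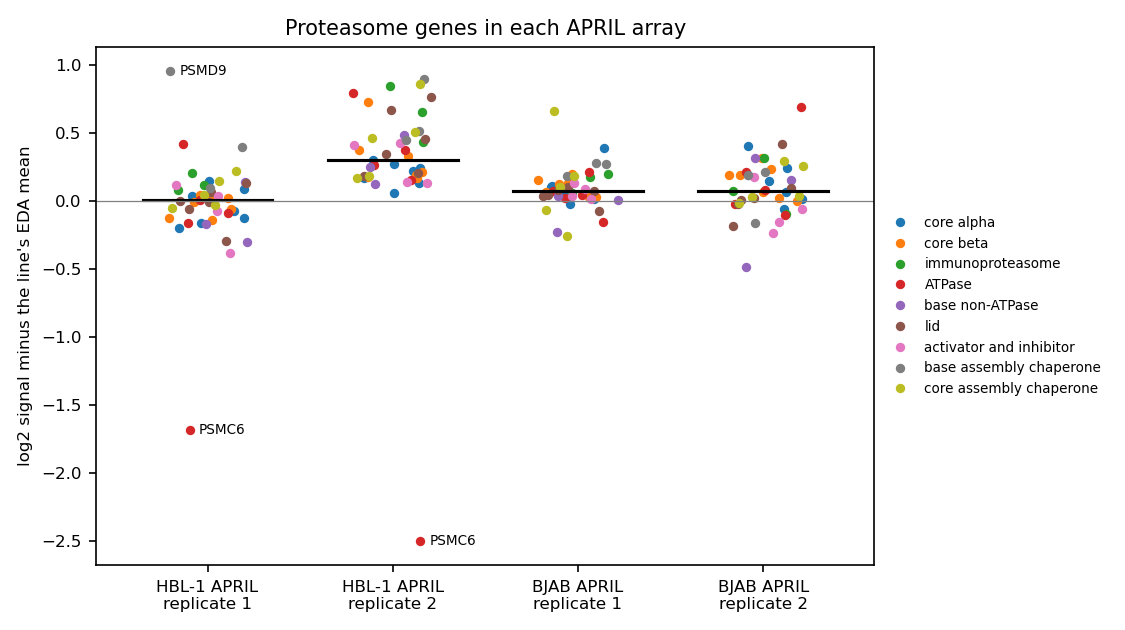
Log2 signal of each of 43 proteasome genes in each APRIL array minus the mean of the 2 EDA arrays of the same line, coloured by sub-complex, with the median as a bar. The median is at 0.00 in the first HBL-1 array, 0.30 in the second and 0.07 in both BJAB arrays, and PSMC6 is far below 0 in both HBL-1 arrays.

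In HBL-1 the members with the smallest p among the positive differences were PSMD9, PSMC2 and PSMG4. PSMD9 read 3.81, 4.04, 4.88 and 4.82, a fitted difference of 0.93 (SE 0.20, adjusted p = 0.391), with both APRIL arrays above both EDA arrays. All 4 were below 5, so the size of this difference cannot be read. It is 1 of 23 genes with a mean of at least 12 in BJAB and under 6 in HBL-1, whose differences between APRIL and EDA in HBL-1 had a median of 0.41. Both APRIL arrays exceeded both EDA arrays for 34.8% of these 23, against 20.1% of 18041 genes that were under 6 in HBL-1 and within 1 of that level in BJAB. In BJAB the shares were 39.1% of the 23 and 14.3% of the 18041. Of 41 genes of at least 12 in HBL-1 and under 6 in BJAB, 34.1% did so in HBL-1 and 12.2% in BJAB. Relative to the EDA mean of HBL-1, the 23 genes had a median of 0.19 in the first APRIL array. In the second, the array that stood apart, it was 0.50. For the 18041 genes these medians were -0.02 and 0.10. These sets were cut on line means that include the arrays compared, and PSMD9 is itself 1 of the 23. The shares and medians therefore only describe these arrays. What lies behind the signals of PSMD9 in HBL-1 was not tested. PSMC2 read 13.20, 12.80, 13.42 and 13.80, a difference of 0.61 (SE 0.23, adjusted p = 0.518). PSMG4 read 9.66, 9.35, 9.72 and 10.36, a difference of 0.54 (SE 0.26, adjusted p = 0.593). The ligands did not overlap for either gene, and neither passed the test.

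Among the negative differences in HBL-1, PSMC6 read 7.91, 8.01, 6.27 and 5.45, a difference of -2.10 (SE 0.53, adjusted p = 0.421). This was the lowest of all 33616 genes, with both APRIL arrays below both EDA arrays, and it did not pass. The row used had a mean of 7.02 over the 8 arrays. The gene's other row, with a mean of 6.42, gave 0.33, so the 2 rows disagreed in direction. In BJAB PSMC6 read 7.90, 5.96, 7.004 and 7.62, with the APRIL arrays between the 2 EDA arrays, which were far apart. PSME4 came next, with 12.62, 12.88, 12.36 and 12.88 (-0.12), then PSMD3, with 12.51, 12.27, 12.09 and 12.59 (-0.05). Both overlapped between ligands.

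In BJAB the smallest p among the positive differences belonged to PSMG4, with 9.45, 9.45, 10.11 and 9.74 (0.48 (SE 0.26, adjusted p = 1)), PSMA1, with 10.82, 10.10, 10.85 and 10.86 (0.39 (SE 0.25, adjusted p = 1)), and PSMD9, with 14.83, 14.81, 15.10 and 15.01 (0.23 (SE 0.20, adjusted p = 1)). Among the negative ones it belonged to PSMD2, with 13.51, 13.66, 13.36 and 13.10 (-0.36 (SE 0.24, adjusted p = 1)), PSMC2, with 13.50, 13.51, 13.34 and 13.40 (-0.13), and PSMG2, with 12.31, 12.22, 12.01 and 12.25 (-0.14). The ligands overlapped in BJAB for PSMG2 and not for the other 5. Such separation was common in BJAB: 17.3% of all genes were separated with APRIL higher and 17% with APRIL lower. Among the 43 members these counts were 15 and 3. For the 36 bright members they were 11 and 3, and for the 3053 bright genes 781 and 358. The 6 genes were picked by smallest p, so their separation is not independent of that choice. Averaged over the lines, PSMD9 (0.58 (SE 0.14, adjusted p = 0.626)), PSMG4 (0.51 (SE 0.19, adjusted p = 0.675)) and PSMD5 (0.35 (SE 0.16, adjusted p = 0.717)) had the smallest p among the positive differences. The value for PSMD9 includes the HBL-1 signals below 5, so its size and place in this order cannot be read. PSMD5 read 10.99, 11.35, 11.57 and 11.68 in HBL-1 and 11.29, 11.61, 11.72 and 11.66 in BJAB. The negative differences with the smallest p were those of PSMC6 (-0.86 (SE 0.37, adjusted p = 0.713)), PSMD2 (-0.19) and PSME4 (-0.09), which read 13.13, 12.86, 13.12 and 12.76 in BJAB. For PSMD9, PSMG4 and PSMD5 the APRIL arrays exceeded the EDA arrays within both lines. This was so for 8 of the 43 members and for 5.09% of all genes. Among the bright genes it was so for 4 of 36 members and 315 of 3053 genes. None of the members named here passed the test.

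The immunoproteasome subunits had APRIL differences of 0.43 for PSMB8 (95% interval -0.09 to 0.94), 0.28 for PSMB9 (-0.20 to 0.76) and 0.46 for PSMB10 (-0.17 to 1.09) in HBL-1. Both APRIL arrays exceeded both EDA arrays in each case, as they did for 25.4% of all genes and 1067 of the 3053 bright genes. The second APRIL array, the one that stood apart, was the higher. The first read 13.31, 13.33 and 12.78, where the higher EDA value of each gene was 13.22, 13.27 and 12.70. In BJAB the APRIL differences were 0.12 (-0.39 to 0.64), 0.19 (-0.30 to 0.67) and 0.05 (-0.58 to 0.68). No interval excluded 0. Of the interferon-linked genes, IRF8 had the smallest p in HBL-1 (0.68 (SE 0.20, adjusted p = 0.471)), followed by NLRC5 (0.65 (SE 0.20, adjusted p = 0.473)). In BJAB the smallest p were those of IRF8 (0.51 (SE 0.20, adjusted p = 1)) and TAP1 (0.38 (SE 0.22, adjusted p = 1)), and on average over both lines those of IRF8 (0.60 (SE 0.14, adjusted p = 0.626)) and NLRC5 (0.34). None passed.

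For the other lists 0 genes were called in any comparison between ligands. In HBL-1 the smallest p belonged to ZFAND2B (0.59) and PITHD1 (0.47) among bound factors, MAFF (0.36) and NFE2L2 (0.30) among regulators, and UBQLN1 (0.34) and NPLOC4 (0.30) among ubiquitin genes. In BJAB it belonged to UBE3C (-0.29) and ECPAS (-0.24), VCP (-0.33) and SEL1L (0.32), and RAD23B (-0.28) and UBA1 (-0.30) in the same order of lists. None passed. Over the whole lists, in the same order, 13 of 17, 6 of 9 and 8 of 10 genes had positive differences in HBL-1. In BJAB these counts were 5 of 17, 4 of 9 and 4 of 10. Of the 10 interferon-linked genes, 10 were positive in HBL-1 and 7 in BJAB. Across all genes, 63.7% were positive in HBL-1 and 50.3% in BJAB.

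The test of the difference between the lines' responses to APRIL called no members. The smallest p belonged to PSMC6, at -2.48 (SE 0.75, adjusted p = 0.843), PSMD9, at 0.69 (SE 0.28, adjusted p = 0.861), and PSMC2, at 0.74 (SE 0.32, adjusted p = 0.868). For PSMD9 the HBL-1 part again lies between signals below 5, so its size and place cannot be read. PSMG2 came next among the positive values (0.36). Among the negative ones PSMD1 (-0.18) read 12.97, 12.93, 12.78 and 13.07 in HBL-1 and 13.34, 13.26, 13.30 and 13.61 in BJAB. PSMA6 (-0.17) read 16.15, 16.02, 15.92 and 16.25 in HBL-1 and 16.36, 16.43, 16.50 and 16.63 in BJAB. For PSMD1 and PSMA6 the APRIL arrays of HBL-1 lay on both sides of its EDA arrays. The median over the members was 0.07, against 0.10 over all genes.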

How the data were processed

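Biotin-labelled total RNA was measured on 8 single-colour Affymetrix arrays, 2 for each combination of line and ligand. The authors deposited log2 signals. The submitters' processing notes name RMA and Affymetrix Expression Console. Versions, annotation release and genome build are not given in the sources used here. Of 138745 rows, 36176 named exactly 1 gene symbol in the platform annotation and 1119 named several. For each of 33616 genes the row with the highest mean was used, without a filter on low signals. Symbols, gene order and promoters came from RefSeq tables (GRCh38.p14).

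Group means of the 4 groups were fitted together with limma 3.58.1 in R 4.3.3 (lmFit, eBayes), with 4 residual degrees of freedom, and p-values were adjusted by Benjamini-Hochberg over all genes, with 0.05 as the threshold. The limma fit was tested on simulated data. Promoters were searched with Python 3.11.15. The number of arrays limits precision: the median standard error was 0.17 for the line difference and 0.25 for a response within a line.

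The members and gene lists were chosen with earlier results of these data known. Values per array were given for up to 10 called members in each direction of the line difference, the 3 smallest p in each direction of the ligand comparisons, the exchanged pairs, PSMD9 and POMP. Other genes were named by smallest p (4 called per direction between lines, 2 between ligands), as neighbours of PSMD9 (4 a side) or as its 3 closest profiles. For genes with several promoter windows the first in the table was printed, whatever it matched. Arrays with the same replicate number were not treated as pairs, and the labels do not say whether they were. Deviations of same-numbered arrays correlated between -0.02 and 0.06, so no shared replicate effect was seen. Alternatives changed the filter, the row per gene, the normalization, the variance model, array weights, the replicate block, the genes tested and the arrays.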

Additional observations from a re-analysis of the deposited data

Results flagged for a closer look

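PSMC2, an ATPase of the base, had both APRIL arrays above both EDA arrays in HBL-1 and both below in BJAB, which is why it is listed. The response in HBL-1 minus that in BJAB was 0.74 (SE 0.32, adjusted p = 0.868 by limma), so the test of the difference itself did not pass. Fully opposite responses of this kind were seen for 1845 genes, 5.49% of all, and for 1 of the 43 members.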

How the results depend on the processing

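The count of 22 members called between the lines ranged from 15 to 23 when single arrays were left out and reached 32 with an intensity trend and robust shrinkage. In all 19 settings 13 members were called: PSMA2, PSMB1, PSMB2, PSMB5, PSMB7, PSMB8, PSMB9, PSMB10, PSMD3, PSMD6, PSMD9, PSME1 and PSMG2. With the replicate block the same 22 members were called. Under EDA the count of 7 became 11 with quantile normalization, 13 with cyclic loess, 20 with trend and robust shrinkage and 12 with array weights, and ranged from 4 to 10 when single arrays were left out. Under APRIL the count of 11 became 17 with equal array medians, 23 with trend and robust shrinkage and 7 with only the arrays compared, and ranged from 5 to 13 without single arrays. The causes were not tested. The members' median ranged, without single arrays, from -0.40 to -0.22 between the lines, 0.00 to 0.30 for APRIL in HBL-1, 0.05 to 0.09 in BJAB and -0.07 to 0.24 for the difference of responses. Of 920 values of named members under alternatives, 912 kept their sign. The exceptions left out single arrays: POMP between the lines (-0.020 without HBL-1 APRIL replicate 2, -0.036 without BJAB EDA replicate 2, range -0.036 to 0.094), PSMD3 in HBL-1 (0.073 without EDA replicate 1, 0.20 without APRIL replicate 1, range -0.30 to 0.20), PSME4 in HBL-1 (0.0059 without EDA replicate 2, 0.14 without APRIL replicate 1, range -0.38 to 0.14) and PSME4 on average (0.039 without HBL-1 APRIL replicate 1, 0.0016 without BJAB APRIL replicate 2, range -0.22 to 0.039). None of these was called. The setting that read each gene from the row on its own chromosome was added after the data were seen and also called the same 22.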
